A study of Mus musculus with 9 samples.

Results

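The genes described are 45 named genes of mitosis and chromosome segregation, taken from a list by symbol and followed over 9 Affymetrix arrays of mouse m-ICcl2 cells. Of the 45, 44 had a probe set annotated to that gene alone, and each was read from the one with the highest mean over the 9 arrays. All 44 reached log2 4 or more on at least 3 arrays and were tested, among 9431 such genes of 18193 with a probe set of their own. Ccnb1, the gene of cyclin B1, had none and is not analysed here. No member passed the minimum through 1 condition alone.

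m-ICcl2 is a line from fetal small intestine of C57BL/6 mice, described in the labels as epithelial. All 9 samples carry an SV40 large T antigen transgene, and the labels do not name its promoter. Cells were left unstimulated, given 100 ng/mL of the bacterial endotoxin lipopolysaccharide (LPS, here from E. coli D31m4) over 6 h, or given the same 6 h exposure followed by 90 h without LPS. This last group, harvested 96 h from the start of exposure, is termed tolerant in the series design. Each condition had 3 arrays labelled as biological replicates, all from 1 cell line. The labels do not say what made them separate, so p-values measure the spread between these arrays. The labels give no culture time for the unstimulated cells, so LPS exposure and time in culture cannot be told apart in any difference between tolerant and unstimulated cells.

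In mitosis, cyclin A and cyclin B with the kinase CDK1 drive entry, condensin and topoisomerase II shape the chromosomes, and kinetochores tie them to spindle microtubules. The spindle checkpoint holds back the anaphase-promoting complex until all chromosomes are attached, after which cyclin B and securin are destroyed and the cell divides by cytokinesis. Transcripts of these genes build up in G2 and M phase under B-MYB, MuvB and FOXM1 and are held low in resting cells by the DREAM complex, so they are widely read as markers of dividing cells. Large T antigen binds the RB family proteins and frees E2F, which is why cells that carry it tend to keep cycling. In the intestine, dividing cells lie in the crypts.

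The arrays were alike in overall level. The median over tested genes was log2 7.62 to 7.84 on the 9 arrays, and the share of probe sets below log2 4 was 59.1% to 61%. The epithelial keratin genes Krt8 and Krt18 read log2 12.7 to 13.5 and 11.8 to 13.4, and Vil1, the villin of the brush border, read 7.56 to 8.29. Epcam read 2.92 to 6.07, and the epithelial genes Cdh1 and Krt19 and the intestinal transcription factor genes Cdx1 and Cdx2 lay below log2 4 on all 9 arrays. The 7 fibroblast and 4 endothelial marker genes measured were also below log2 4 on all 9 arrays. Of 6 leukocyte markers measured, 5 were below it and Csf1r, the receptor gene of a macrophage growth factor, read 7.97 to 11.2. Replicate 1 stood apart in all 3 conditions, with beta-actin control probes that read higher at the 3′ than at the 5′ end by 0.40 to 0.72 log2, against 1.02 to 1.38 on the other 6 arrays. Tests were therefore also run with a block for the replicate number, and those values are given where they change a call.

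Mitosis genes were higher in tolerant cells than in either other condition. The median level over the 44 genes was log2 7.45 to 7.60 on the unstimulated arrays, 7.53 to 7.63 on the 6 h LPS arrays and 8.80 to 8.89 on the tolerant arrays, whereas the ranges over all tested genes overlapped between conditions. All 3 tolerant arrays lay above the other 6 in 34 of the 44 genes, or 77.3%, against 11% of all tested genes. The highest of the 9 arrays was a tolerant one in all 44 genes, a pattern that was not counted over all tested genes. In whole-culture RNA, a larger share of cells in mitosis and more of each transcript per cell cannot be told apart. Some markers of cell identity also moved with the tolerant condition. Epcam read log2 2.92 to 3.24 on the other 6 arrays and 5.31 to 6.07 on the tolerant ones. In the same order, Cdh17, an intestinal cadherin gene, read 5.18 to 6.37 and 7.39 to 8.02. Krt18 read 11.85 to 12.70 and 12.93 to 13.45, while Krt8 and Vil1 overlapped. Hnf4a, an epithelial transcription factor gene, read 8.71 to 10.11 and 7.53 to 8.19, and Csf1r 9.35 to 11.21 and 7.97 to 9.30. Their part in the mitosis result was not tested.

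**Figure D1:**
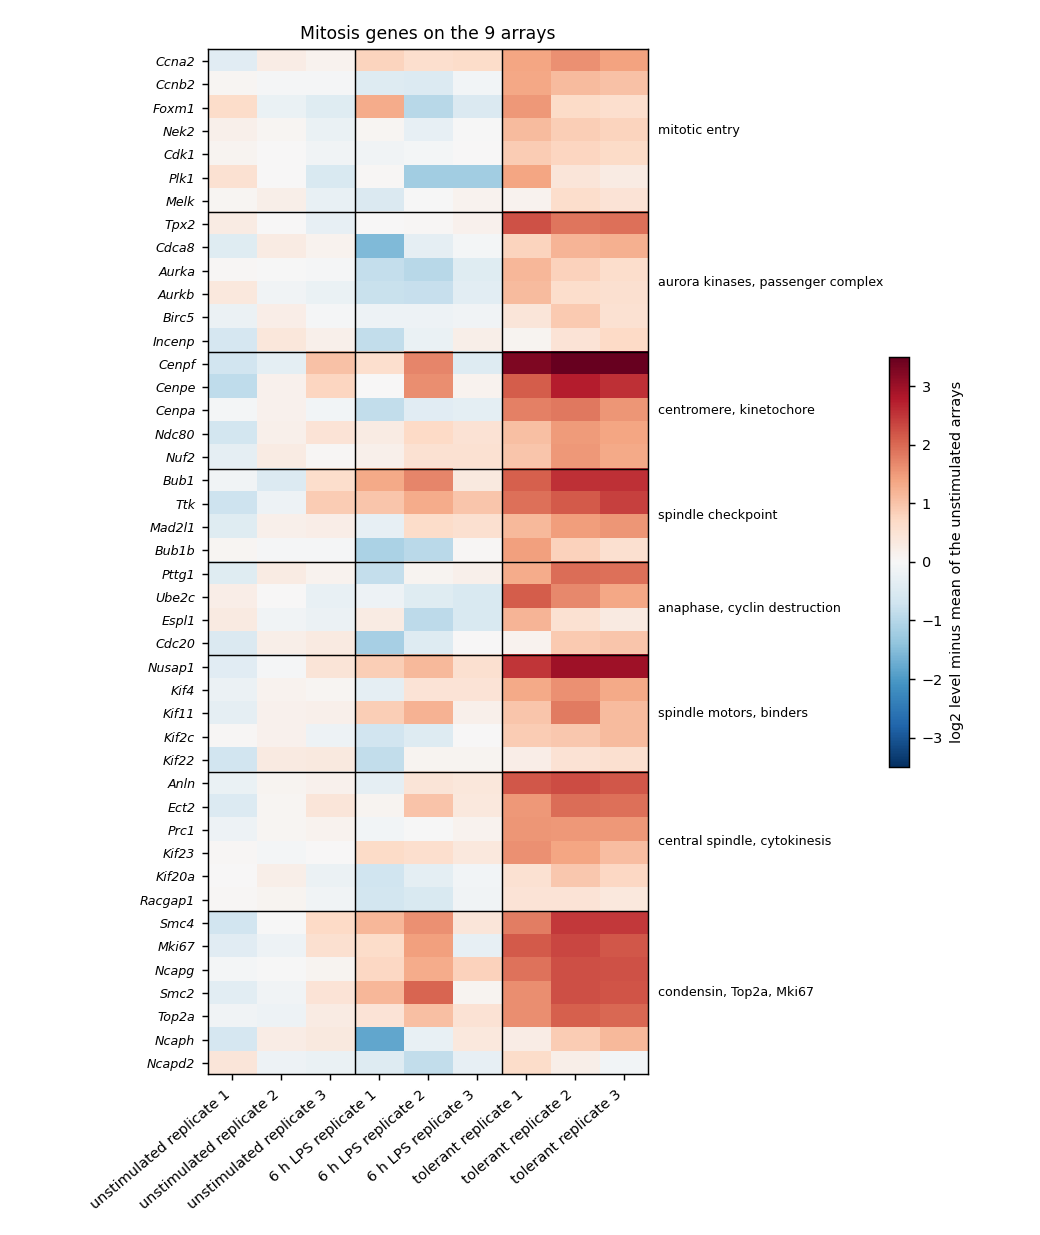
Log2 level of each of the 44 mitosis genes on each of the 9 arrays, minus the mean of that gene's 3 unstimulated arrays. Rows are genes grouped by role, columns are arrays and colour is the log2 difference, red for higher; the 3 tolerant columns are red apart from Ncapd2 on tolerant replicate 3, while the 6 h LPS columns hold both colours.

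Against unstimulated cells, 32 of 44 mitosis genes rose in tolerant cells and 0 fell, at an adjusted p of 0.05 in limma over all 9431 genes. That is 72.7% of them, where 14% of all tested genes were called higher and 12.2% lower. With the replicate block 40 rose and 0 fell, against 22.7% and 25.9% of all tested genes. The tolerant arrays lay wholly above the unstimulated ones in 36 genes, as in 22.6% of all tested genes. The 44 genes were higher in each of the 3 same-numbered pairs of arrays, a pattern that 35.5% of all tested genes had. The log2 differences ran from 0.25 for Ncapd2 to 3.44 for Cenpf, with a median of 1.30 against -0.07 over all tested genes, and 26 genes differed by at least 2-fold, which 9.89% of all tested genes did upward. The 32 calls spanned 1.54-fold to 10.9-fold. Of these, 27 held with any 1 of the 9 arrays left out, and Aurka, Aurkb, Birc5, Kif11 and Kif20a lost the call in at least 1 such fit. Conversely, Cdca8 passed without 6 h LPS replicate 1 (adjusted p = 0.0104), Bub1b without 6 h LPS replicate 1 or 3 (0.0485 and 0.0205) and Racgap1 without 6 h LPS replicate 3 (0.0475). The 12 genes that did not pass were Plk1, Foxm1, Melk, Cdca8, Incenp, Bub1b, Espl1, Cdc20, Kif22, Racgap1, Ncapd2 and Ncaph.

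**Figure D2:**
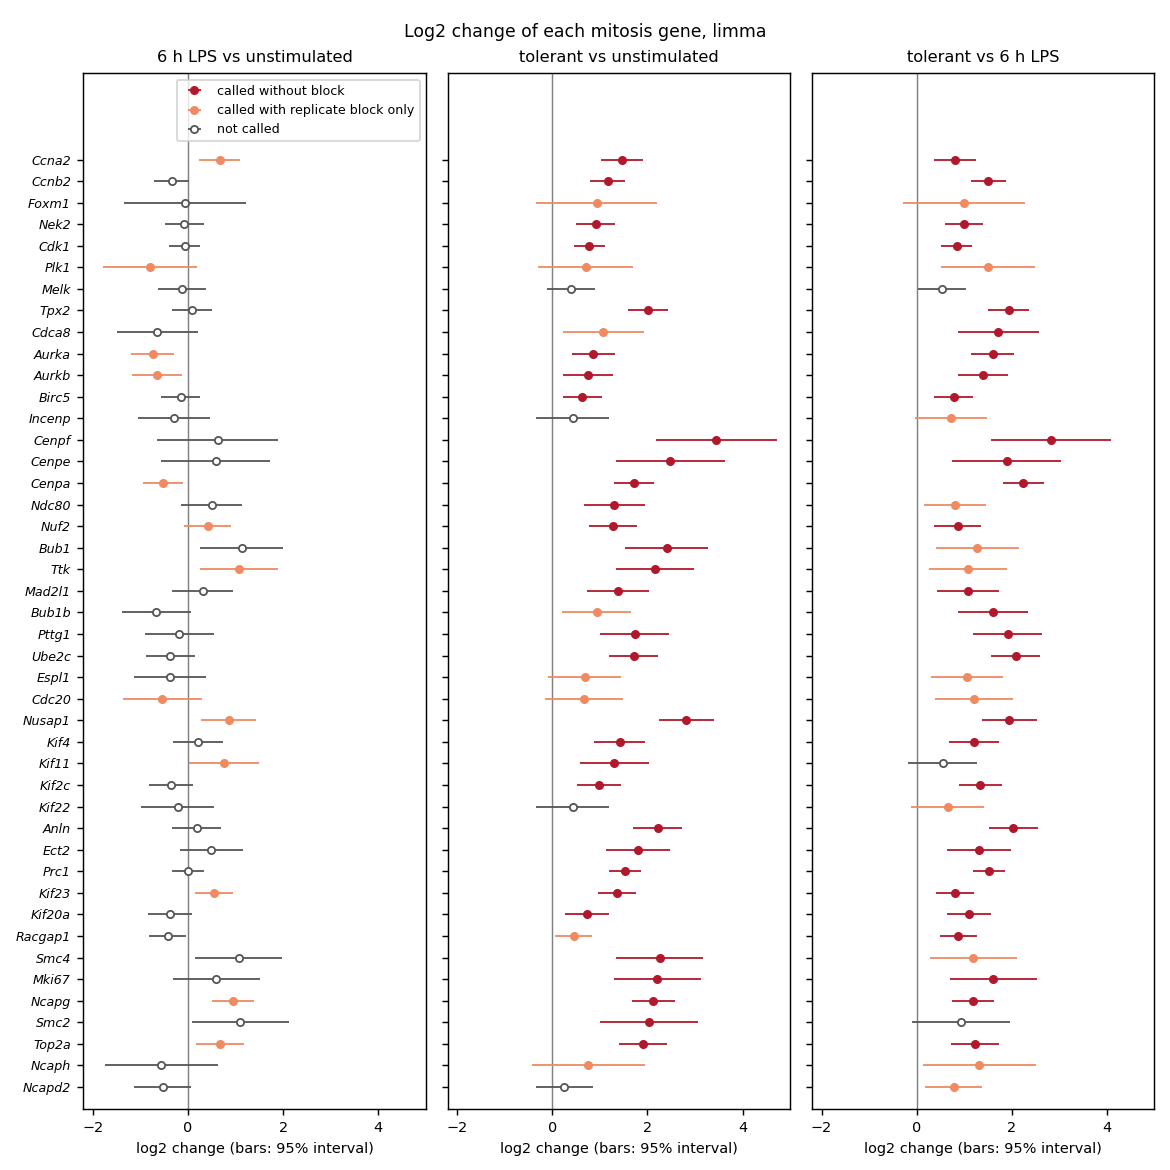
Log2 change of each of the 44 mitosis genes in the 3 comparisons, with 95% intervals from limma without the block. Filled red points passed the test, orange points passed only with the replicate block, and open points passed neither; the points of both tolerant panels all lie above 0, and those of the 6 h panel lie on both sides.

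Promoter sequence is shown for 4 members because their transcripts rose or were higher in tolerant cells and their start sites carry the elements through which cell-cycle promoters are known to be read. These elements are the cell-cycle homology region (CHR, TTTGAA), bound by MuvB, and the CCAAT box (CCAAT), bound by NF-Y. RefSeq promoter sequence on GRCm38.p6, from 250 bases before to 50 bases after the start, was at hand for 37 of the 44 genes. Both strands were searched, each motif on its own so that matches may share a letter, and where a gene had several promoters the first listed was used. CHR matched in 27 of the 37, or 73%, against 11.3% of 7776 tested genes, and CCAAT in 27, or 73%, against 38.8%. Both were present in 24 of 37, or 64.9%, against 4.73% of tested genes. These shares describe letters in a window and not binding. The 150 bases before the start are printed on the gene's own strand, with matches on either strand in capitals, so that an opposite-strand CHR reads TTCAAA and an opposite-strand CCAAT reads ATTGG. Cdk1 lies at chr10:69352913-69353062 on the minus strand, Cdc20 at chr4:118437344-118437493 on the minus strand, Ube2c at chr2:164769779-164769928 on the plus strand and Top2a at chr11:99024190-99024339 on the minus strand.
Cdk1: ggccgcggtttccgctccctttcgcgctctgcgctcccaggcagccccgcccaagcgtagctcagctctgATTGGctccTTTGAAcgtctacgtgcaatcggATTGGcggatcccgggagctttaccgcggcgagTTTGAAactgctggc
Cdc20: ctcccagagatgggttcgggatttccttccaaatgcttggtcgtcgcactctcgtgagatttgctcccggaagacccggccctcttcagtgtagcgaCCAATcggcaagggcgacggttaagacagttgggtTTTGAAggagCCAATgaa
Ube2c: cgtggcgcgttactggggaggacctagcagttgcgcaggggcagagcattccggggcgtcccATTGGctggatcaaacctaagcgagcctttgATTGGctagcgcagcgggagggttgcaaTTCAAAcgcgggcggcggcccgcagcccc
Top2a: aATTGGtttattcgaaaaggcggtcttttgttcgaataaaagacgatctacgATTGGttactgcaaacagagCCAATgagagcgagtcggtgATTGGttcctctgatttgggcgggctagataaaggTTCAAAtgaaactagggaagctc
The 4 were chosen from members holding both elements in the printed stretch, so their matches are no evidence about the others. Ect2, Espl1, Kif11, Kif22, Mki67, Ncapd2 and Smc2 also held both in that stretch. Of these, Kif22 and Ncapd2 passed in neither fit of tolerant against unstimulated cells.

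Of the 7 genes of mitotic entry, 4 rose in tolerant against unstimulated cells and 6 with the block. Ccna2, the gene of cyclin A2, which acts in S phase and at mitotic entry, read log2 7.996, 8.65 and 8.50 on the unstimulated arrays, 9.15, 8.96 and 9.03 at 6 h and 9.77, 9.98 and 9.79 on the tolerant arrays. The 3 conditions did not overlap and stood in that order. Between 6 h and unstimulated cells the difference was 0.66 log2 on this probe set and 0.15 on the other. Ccna2 rose 2.76-fold, from 8.38 ± 0.34 to 9.85 ± 0.12 (SD, n = 3; limma adjusted p = 0.00115). Ccnb2, the gene of cyclin B2, read 8.28, 8.18 and 8.19 unstimulated, 7.76, 7.74 and 8.12 at 6 h and 9.56, 9.33 and 9.25 in tolerant cells. Its tolerant arrays were highest and its 6 h arrays lowest, and it rose 2.24-fold in tolerant against unstimulated cells (limma adjusted p = 0.00167). Cdk1, the mitotic kinase itself, rose 1.71-fold (adjusted p = 0.00543) and Nek2, a kinase of centrosome separation, 1.88-fold (adjusted p = 0.00709).

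The other 3 genes of mitotic entry, Foxm1, Plk1 and Melk, did not pass without the block. Foxm1, the transcription factor that drives many G2 and M genes, read log2 6.37, 5.49 and 5.30 unstimulated, 7.01, 4.75 and 5.21 at 6 h and 7.25, 6.40 and 6.31 in tolerant cells. Replicate 1 was the highest array in every condition, and the conditions overlapped. Its difference between tolerant and unstimulated cells was 0.93 log2 (95% interval -0.34 to 2.21; limma adjusted p = 0.259, or 0.0181 with the block), and its other probe sets differed by as little as 0.33. Plk1, the polo kinase of mitotic entry and spindle assembly, read 7.67, 7.13 and 6.59 unstimulated, 7.17, 5.92 and 5.91 at 6 h and 8.52, 7.56 and 7.41 in tolerant cells. Here too replicate 1 was highest in each condition. Plk1 differed by 0.70 log2 (adjusted p = 0.277, or 0.00722 with the block). Melk, a kinase gene commonly expressed in dividing cells, read 7.18, 7.31 and 6.86 unstimulated, 6.61, 7.10 and 7.24 at 6 h and 7.23, 7.72 and 7.58 in tolerant cells. All 3 conditions overlapped, and Melk passed in neither fit (0.40 log2, 95% interval -0.11 to 0.90; limma adjusted p = 0.224).

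Of the 6 genes of the Aurora kinases and the chromosomal passenger complex, which corrects faulty attachments and guides cytokinesis, 4 rose and 5 with the block. Tpx2, which brings Aurora A to the spindle and activates it, read log2 6.63, 6.34 and 6.04 unstimulated, 6.36, 6.39 and 6.50 at 6 h and 8.56, 8.21 and 8.27 in tolerant cells. The unstimulated and 6 h arrays overlapped and the tolerant arrays lay far above both. Tpx2 rose 4.03-fold (limma adjusted p = 0.000252), by 2.01 log2 on this probe set and by 0.57 on another. Aurka, the gene of Aurora A, read 8.81, 8.74 and 8.72 unstimulated, 7.93, 7.79 and 8.34 at 6 h and 9.91, 9.57 and 9.36 in tolerant cells. Its 6 h arrays lay below the unstimulated ones and its tolerant arrays above. It rose 1.81-fold in tolerant against unstimulated cells (adjusted p = 0.0138), a call that ended without unstimulated replicate 2 (adjusted p = 0.0505).

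Aurkb encodes Aurora B, the kinase of the passenger complex. It read log2 7.74, 7.25 and 7.14 unstimulated, 6.60, 6.58 and 7.01 at 6 h and 8.47, 7.99 and 7.92 in tolerant cells. It stood in the same order as Aurka and rose 1.68-fold (limma adjusted p = 0.0419), but lost the call when unstimulated replicate 2 or 3, 6 h LPS replicate 2 or any tolerant array was left out, with an adjusted p of up to 0.130. Cdca8, the gene of borealin, read 8.94, 9.65 and 9.48 unstimulated, 7.80, 9.05 and 9.29 at 6 h and 10.14, 10.56 and 10.60 in tolerant cells. Its tolerant arrays lay above the rest, with replicate 1 lowest in every condition, and it differed 2.11-fold (adjusted p = 0.0641, or 0.00352 with the block). Birc5, the gene of survivin, rose 1.54-fold (adjusted p = 0.0342), a call lost without unstimulated replicate 1 or 3 or tolerant replicate 2 or 3, with an adjusted p of up to 0.135. Incenp, the scaffold, read 9.66, 10.65 and 10.41 unstimulated, 9.37, 10.01 and 10.45 at 6 h and 10.34, 10.73 and 10.94 in tolerant cells. Its conditions overlapped and it passed in neither fit (0.43 log2, 95% interval -0.33 to 1.19; limma adjusted p = 0.389).

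All 5 centromere and kinetochore genes rose in tolerant against unstimulated cells. Cenpf, a large kinetochore protein gene that accumulates in G2, read log2 3.69, 4.01 and 5.39 unstimulated, 4.96, 6.08 and 3.92 at 6 h and 7.64, 7.87 and 7.93 in tolerant cells. The 2 earlier conditions were scattered near the minimum, with 1 array of each below log2 4, and the tolerant arrays were close together above them. Cenpf rose 10.9-fold (limma adjusted p = 0.00305). Cenpe, the kinesin that carries chromosomes to the spindle equator, read 3.73, 4.78 and 5.37 unstimulated, 4.64, 6.25 and 4.74 at 6 h and 6.75, 7.38 and 7.18 in tolerant cells. It was lowest on unstimulated replicate 1, and all tolerant arrays were above the other 6, with a rise of 5.57-fold (adjusted p = 0.00794).

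Cenpa, the centromeric histone H3 that marks where the kinetochore forms, read log2 7.49, 7.70 and 7.46 unstimulated, 6.69, 7.16 and 7.21 at 6 h and 9.32, 9.40 and 9.08 in tolerant cells. The 6 h arrays lay below the unstimulated ones and the tolerant arrays far above both. It rose 3.29-fold (limma adjusted p = 0.000508). Nuf2, a subunit of the microtubule-binding NDC80 complex, read 7.08, 7.70 and 7.43 unstimulated, 7.57, 7.94 and 7.93 at 6 h and 8.37, 8.93 and 8.74 in tolerant cells. It rose 2.41-fold (adjusted p = 0.00401), and its partner Ndc80 rose 2.47-fold (adjusted p = 0.0108).

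Of the 4 spindle checkpoint genes, 3 rose and 4 with the block. Bub1, a kinetochore kinase that recruits the other checkpoint proteins, read log2 4.64, 4.28 and 5.39 unstimulated, 6.09, 6.48 and 5.12 at 6 h and 6.86, 7.33 and 7.34 in tolerant cells. Its 6 h replicates 1 and 2 lay between the other conditions, while 6 h replicate 3 lay among the unstimulated arrays. It rose 5.29-fold (limma adjusted p = 0.00285). Ttk, the kinase MPS1 at the head of the checkpoint, read 3.74, 4.28 and 5.36 unstimulated, 5.42, 5.75 and 5.43 at 6 h and 6.39, 6.60 and 6.84 in tolerant cells. The 3 conditions stood apart in that order, and Ttk rose 4.44-fold (adjusted p = 0.00343).

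Mad2l1 and Bub1b encode parts of the inhibitor that the checkpoint makes against the anaphase-promoting complex. Mad2l1 read log2 9.58, 10.18 and 10.23 unstimulated, 9.70, 10.62 and 10.57 at 6 h and 11.14, 11.46 and 11.55 in tolerant cells. Replicate 1 was lowest in each condition and the tolerant arrays were above all others, a rise of 2.61-fold (limma adjusted p = 0.00853). Bub1b read 6.56, 6.44 and 6.43 unstimulated, 5.38, 5.52 and 6.52 at 6 h and 7.90, 7.28 and 7.04 in tolerant cells. Its tolerant arrays were highest, and the difference of 1.91-fold passed only with the block (adjusted p = 0.061 without and 0.0394 with it).

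Of the 4 genes of anaphase and cyclin destruction, 2 rose and 4 with the block. Pttg1, the gene of securin, which blocks separase until anaphase, read log2 8.52, 9.22 and 9.05 unstimulated, 8.11, 9.02 and 9.12 at 6 h and 10.24, 10.90 and 10.86 in tolerant cells. The first 2 conditions overlapped and the tolerant arrays were higher, a rise of 3.33-fold (limma adjusted p = 0.00536). Ube2c, the ubiquitin-conjugating enzyme of the anaphase-promoting complex, whose promoter is printed above, read 10.34, 10.12 and 9.83 unstimulated, 9.92, 9.67 and 9.57 at 6 h and 12.21, 11.77 and 11.45 in tolerant cells. It rose 3.28-fold (adjusted p = 0.00123), with all tolerant arrays above the rest.

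The remaining genes of the group, Cdc20 and Espl1, passed only with the block. Cdc20, which activates that complex, read log2 9.53, 10.23 and 10.34 unstimulated, 8.86, 9.57 and 10.04 at 6 h and 10.14, 10.96 and 11.00 in tolerant cells. Replicate 1 was lowest throughout and tolerant replicate 1 lay below 2 of the unstimulated arrays. The difference was 0.67 log2 (limma adjusted p = 0.21, or 0.00427 with the block). Espl1, the gene of separase, which cuts cohesin, read 6.85, 6.43 and 6.34 unstimulated, 6.83, 5.63 and 6.01 at 6 h and 7.72, 7.07 and 6.86 in tolerant cells. Its tolerant arrays lay just above the unstimulated ones, by 0.68 log2 on average (adjusted p = 0.175, or 0.0119 with the block).

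Of the 5 genes of spindle motors and microtubule binders, 4 rose with and without the block. Nusap1, which bundles microtubules near the chromosomes, read log2 5.41, 5.76 and 6.25 unstimulated, 6.68, 6.94 and 6.38 at 6 h and 8.31, 8.77 and 8.78 in tolerant cells. The conditions stood apart in that order, and Nusap1 rose 7.02-fold (limma adjusted p = 0.000225). Kif11, the kinesin that pushes spindle poles apart, read 5.21, 5.70 and 5.70 unstimulated, 6.41, 6.77 and 5.71 at 6 h and 6.50, 7.36 and 6.65 in tolerant cells. Its 6 h arrays lay above the unstimulated ones, with 6 h replicate 3 close to their highest, and reached into the tolerant range. Kif11 rose 2.46-fold in tolerant against unstimulated cells (adjusted p = 0.0176), a call lost without unstimulated replicate 1 (0.0587) or tolerant replicate 2 (0.0681).

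The other 3 genes of the group are kinesins that act on chromosomes or at centromeres. Kif4, a chromosome-bound kinesin also found at the central spindle, read log2 5.35, 5.68 and 5.62 unstimulated, 5.23, 6.02 and 6.02 at 6 h and 6.88, 7.13 and 6.88 in tolerant cells. It rose 2.67-fold (limma adjusted p = 0.00325), with no overlap between tolerant and other arrays. Kif2c, a kinesin that depolymerises microtubules at centromeres, rose 1.97-fold (adjusted p = 0.00832). Kif22, a kinesin that pushes on chromosome arms, read 8.81, 9.80 and 9.84 unstimulated, 8.63, 9.58 and 9.57 at 6 h and 9.70, 10.002 and 10.04 in tolerant cells. Replicate 1 was lowest in each condition, and Kif22 passed in neither fit (0.43 log2, 95% interval -0.33 to 1.20; adjusted p = 0.386).

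Of the 6 genes of the central spindle and cytokinesis, 5 rose and 6 with the block. Anln, the gene of anillin, which anchors the contractile ring, read log2 8.56, 8.90 and 8.95 unstimulated, 8.49, 9.26 and 9.20 at 6 h and 10.98, 11.09 and 10.97 in tolerant cells. The tolerant arrays were close together and far above the other 6, a rise of 4.63-fold (limma adjusted p = 0.000361). Ect2, the exchange factor that activates RhoA at the division plane, read 7.76, 8.30 and 8.65 unstimulated, 8.34, 9.22 and 8.61 at 6 h and 9.74, 10.19 and 10.18 in tolerant cells. It rose 3.48-fold (adjusted p = 0.0031), and its first 2 conditions overlapped. Prc1, which crosslinks the microtubules of the central spindle, read 7.13, 7.40 and 7.43 unstimulated, 7.21, 7.32 and 7.44 at 6 h and 8.86, 8.84 and 8.83 in tolerant cells. Its unstimulated and 6 h values covered the same range, and it rose 2.88-fold (adjusted p = 0.000282).

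Kif23 and Racgap1 encode the kinesin and the GTPase-activating protein that make up centralspindlin. Kif23 read log2 7.36, 7.26 and 7.34 unstimulated, 8.003, 7.90 and 7.68 at 6 h and 8.92, 8.70 and 8.40 in tolerant cells. The 3 conditions stood apart in that order, and it rose 2.55-fold (limma adjusted p = 0.00111). Racgap1 read 8.66, 8.71 and 8.51 unstimulated, 7.995, 8.11 and 8.51 at 6 h and 9.11, 9.12 and 8.996 in tolerant cells. It stood in another order, lowest at 6 h, and its difference of 1.36-fold between tolerant and unstimulated cells passed only with the block (adjusted p = 0.0882 without and 0.0498 with it). Kif20a, a kinesin needed at the central spindle, rose 1.65-fold (adjusted p = 0.0287), a call lost without unstimulated replicate 1 or 3 or tolerant replicate 2 or 3, with an adjusted p of up to 0.114.

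Of the 7 genes of condensin, Top2a and Mki67, which act on chromosome structure, 5 rose and 6 with the block. Smc4, a core subunit shared by both condensins, read log2 7.08, 7.74 and 8.45 unstimulated, 8.93, 9.36 and 8.18 at 6 h and 9.55, 10.25 and 10.24 in tolerant cells. As for Bub1, 6 h replicate 3 lay among the unstimulated arrays and the other 6 h arrays above them. Smc4 rose 4.77-fold (limma adjusted p = 0.00467) and its partner Smc2 4.09-fold (adjusted p = 0.0117), Smc2 by 0.93 to 2.03 log2 over its probe sets. Mki67, the gene of the Ki-67 antigen that coats mitotic chromosomes, read 7.26, 7.48 and 8.21 unstimulated, 8.29, 9.08 and 7.35 at 6 h and 9.78, 9.98 and 9.81 in tolerant cells. The tolerant arrays were within a narrow range above the scattered others.

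Top2a, the gene of topoisomerase II alpha, which untangles sister chromatids, read log2 8.35, 8.30 and 8.76 unstimulated, 8.96, 9.52 and 8.97 at 6 h and 10.09, 10.55 and 10.47 in tolerant cells. The 3 conditions stood apart in that order. Its rise in tolerant against unstimulated cells was 1.90 log2 on this probe set and 1.06 on its other one. Ncapg, a condensin I subunit, read 5.37, 5.43 and 5.54 unstimulated, 6.18, 6.76 and 6.25 at 6 h and 7.33, 7.70 and 7.69 in tolerant cells. It had the same order with no overlap and rose 4.36-fold (limma adjusted p = 0.000242). Ncapd2, another condensin I subunit, read 8.58, 7.99 and 7.92 unstimulated, 7.72, 7.29 and 7.88 at 6 h and 8.80, 8.38 and 8.06 in tolerant cells. It overlapped between tolerant and unstimulated cells and passed in neither fit (0.25 log2, 95% interval -0.35 to 0.84; adjusted p = 0.536). Ncaph, a condensin I subunit too, differed by 0.75 log2 and passed only with the block (adjusted p = 0.33 without and 0.0341 with it).

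Against the 6 h LPS cells, 29 of 44 mitosis genes rose in tolerant cells and 0 fell, or 65.9%, where 7.1% of all tested genes were called higher and 6.02% lower. With the replicate block 41 rose and 0 fell, against 16% and 15.7% of all tested genes, and the 3 that did not pass were Kif11, Melk and Smc2. This comparison shares the tolerant arrays with the one above. All 44 genes were higher in each of the 3 pairs, which 30.6% of all tested genes were, and the log2 differences ran from 0.53 to 2.83 with a median of 1.21, against 0.01 over all tested genes. The count fell to 19 without tolerant replicate 2, where the count over all tested genes also fell, from 670 to 380. Of the 29 calls, 19 held with any 1 array left out. The other 10, Birc5, Ccna2, Cdca8, Cenpe, Ect2, Kif23, Mad2l1, Mki67, Nuf2 and Racgap1, each lost the call in at least 1 such fit, with an adjusted p of up to 0.129, and every array but unstimulated replicate 1 ended at least 1 of them. Tolerant arrays lay wholly above the 6 h arrays in 38 genes, as in 15.9% of all tested genes, and 29 genes differed by at least 2-fold, which 5.52% of all tested genes did upward.

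Cenpa rose 4.74-fold, Aurka 3.02-fold, Aurkb 2.64-fold, Ccnb2 2.85-fold and Ube2c 4.25-fold against 6 h LPS (limma adjusted p = 0.000183, 0.00141, 0.00508, 0.000645 and 0.000645). Bub1b, Cdca8 and Racgap1, which had missed the threshold against unstimulated cells, rose 3.04-fold, 3.29-fold and 1.83-fold (adjusted p = 0.0126, 0.0177 and 0.0117). The call of Cdca8 ended without tolerant replicate 2 or 3 (0.0653 and 0.0647) and that of Racgap1 without tolerant replicate 2 (0.0519). Genes that had passed against unstimulated cells but not here without the block were Kif11 (1.46-fold, adjusted p = 0.325), Smc2 (1.91-fold, 0.231), Smc4 (2.27-fold, 0.092), Ndc80 (1.75-fold, 0.103), Bub1 (2.42-fold, 0.0619) and Ttk (2.11-fold, 0.0867), and no test was run of the difference between the comparisons.

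After 6 h of LPS none of the 44 mitosis genes passed the limma test, with 14 at an unadjusted p below 0.05. Over all tested genes 6 were called higher, or 0.0636%, and 0 lower, with 2163 at an unadjusted p below 0.05. The log2 differences of the mitosis genes were above 0 in 21 and below 0 in 23, with a median of -0.07 against -0.11 over all tested genes. The direction was the same in all 3 pairs for 10 higher genes, or 22.7%, and 12 lower genes, or 27.3%, against 22.2% and 32.8% of all tested genes, so these shares were near the background.

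With the replicate block 8 mitosis genes were higher at 6 h and 5 lower, or 18.2% and 11.4%, against 11.6% and 12.5% of all tested genes. The higher genes were Ccna2, Nuf2, Ttk, Nusap1, Kif11, Kif23, Ncapg and Top2a, by 0.41 log2 for Nuf2 to 1.07 for Ttk (limma adjusted p with the block 0.0297 to 0.0475). The 6 h arrays lay wholly above the unstimulated ones in all of these but Nuf2, which makes 7 of the 44 genes, or 15.9%, against 12.9% of all tested genes. The lower genes were Plk1, Aurka, Aurkb, Cdc20 and Cenpa, by -0.80 log2 for Plk1 to -0.53 for Cenpa (adjusted p with the block 0.0319 to 0.0477). In Aurka, Aurkb and Cenpa the 6 h arrays lay wholly below the unstimulated ones, and in Plk1 and Cdc20 they overlapped. Ccnb2, Ncapd2 and Racgap1 were also wholly below without a call, which makes 6 such genes, or 13.6%, against 13.2% of all tested genes. In Racgap1 the nearest arrays were almost level, at log2 8.511 for 6 h replicate 3 and 8.512 for unstimulated replicate 3. In Kif11, among the genes wholly above, the same arrays read 5.706 and 5.704. The calls with the block depended on which arrays were used. Without 6 h LPS replicate 3 the block gave 15 higher and 14 lower, and 1582 and 2465 of all 9431 tested genes. With replicates 2 and 3 alone it gave 0 and 0, and 6 and 0 of all tested genes. Both alternatives were chosen after seeing the data. Without the block, leaving out 6 h LPS replicate 3 gave Bub1, Smc2 and Ncapg as higher and Aurka as lower (adjusted p = 0.0413, 0.0421, 0.0397 and 0.0396). Over all tested genes that fit called 503 higher and 193 lower.

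The third pair of arrays differed least. Over the 44 genes the median absolute log2 difference between 6 h LPS and unstimulated cells was 0.671 in replicate 1, 0.62 in replicate 2 and 0.228 in replicate 3, against 0.469, 0.426 and 0.206 over all tested genes. The third pair was the smallest of the 3 in 30 of the 44 genes. Cenpf, Mki67, Cenpe, Smc2, Bub1, Smc4 and Ect2 were higher at 6 h in replicates 1 and 2 and lower in replicate 3, by as much as -1.47 log2 for Cenpf and as little as -0.04 for Ect2. Cdk1, Melk, Nek2, Incenp, Bub1b, Pttg1, Kif2c, Kif20a and Ncaph were lower in replicates 1 and 2 and higher in replicate 3, by 0.04 log2 for Incenp to 0.38 for Melk. The labels give no reason to set 6 h LPS replicate 3 aside, and why it stands nearer the unstimulated arrays was not tested.

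**Figure D3:**
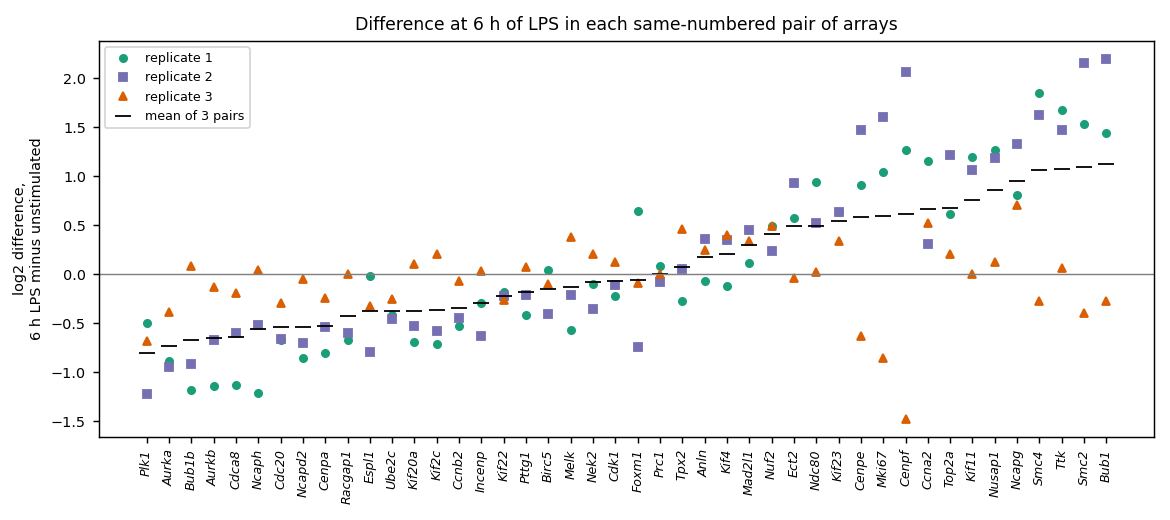
Log2 difference between 6 h LPS and unstimulated arrays for each of the 44 mitosis genes, 1 point per same-numbered pair of replicates. Replicates 1 and 2 spread widely on both sides of 0, while most points of replicate 3 lie closer to it, with Cenpf, Mki67, Plk1 and Cenpe the farthest below.

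For Foxm1, Tpx2, Kif2c, Kif22, Kif23, Top2a and Smc2, another probe set differed from the one used by over 1.5-fold in at least 1 comparison. In tolerant against unstimulated cells all their probe sets at the level minimum were higher, for Kif23 by 1.35 to 1.96 log2. Against 6 h LPS the differences ran from 0.06 to 0.93 log2 for Smc2, 0.32 to 0.996 for Foxm1 and 0.72 to 1.93 for Tpx2. For Kif2c they ran from 1.34 to 2.11 and for Kif22 from 0.66 to 1.47. At 6 h the probe sets of Foxm1, Tpx2 and Ncaph differed in sign. Incenp, Cdc20, Kif2c, Kif22 and Ncaph were read from probe sets that the array's naming marks as open to cross-hybridisation. With such probe sets left out, an alternative chosen after seeing the data, Cdc20 was higher by 0.75 log2 in tolerant against unstimulated cells (limma adjusted p = 0.0154), Kif22 by 0.85 (0.0166) and Ncaph by 0.81 (0.00564), while Incenp still did not pass (0.36, 0.367).

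Other lists of cell-cycle genes are set beside the 44, with no test of a difference between lists. Of 83 further mitosis genes tested, from a list of 88, 38 rose in tolerant against unstimulated cells and 0 fell, or 51 and 4 with the block, with a median of 0.74 log2 and 9 genes below 0. As shares these are 45.8% and 0%, or 61.4% and 4.82% with the block, where 14% and 12.2% of all tested genes were called, or 22.7% and 25.9%. Aspm, which focuses spindle poles, rose 8.81-fold, from log2 4.46, 4.03 and 4.91 to 7.33, 7.82 and 7.67 (limma adjusted p = 0.000177). Cdc25b, the phosphatase that switches on CDK1, rose 6.08-fold (adjusted p = 0.00228), Hmmr, a spindle protein gene, 5.47-fold (0.000901) and Cep55, which acts in the last step of cytokinesis, 5.36-fold (0.000131). Against 6 h LPS 27 of the 83 rose and 0 fell, or 32.5% and 0%, with a median of 0.69 log2. With the block 47 rose and 0 fell, or 56.6% and 0%. Of all tested genes 7.1% and 6.02% were called, or 16% and 15.7% with the block. At 6 h none passed in limma, with 22 of the 83 at an unadjusted p below 0.05, against 2163 of all 9431 tested genes. With the block 13 were higher and 6 lower, or 15.7% and 7.23%, against 11.6% and 12.5% of all tested genes.

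Of 26 tested genes of the DREAM, MuvB, RB-E2F and CDK inhibitor list, 6 rose and 1 fell, or 7 and 3 with the block, with a median of 0.08 log2. These shares were 23.1% and 3.85%, or 26.9% and 11.5% with the block. Over all tested genes they were 14% and 12.2%, or 22.7% and 25.9% with the block. The higher share with the block was thus near the background. Lin54 and Lin9, subunits of MuvB, rose 2.84-fold and 2.11-fold (limma adjusted p = 0.00246 and 0.049), Rb1, the retinoblastoma gene, 2.44-fold (0.0098) and Cdk6, a kinase of G1, 1.92-fold (0.00638). Of 49 tested genes of DNA replication and G1/S, 4 rose and 2 fell, or 7 and 6 with the block, with a median of -0.06 log2, 22 genes above 0 and 27 below. These shares, 8.16% and 4.08%, or 14.3% and 12.2% with the block, lie below those of all tested genes. Pola1, of the polymerase that primes replication, rose 3.06-fold (0.0349), and Cdc7 and its activator Dbf4, the kinase that fires origins, 2.79-fold and 2.7-fold (0.000927 and 0.000252). Ccne1, the gene of cyclin E1, fell 2.23-fold (0.00681), from log2 6.17, 5.86 and 6.13 to 4.68, 4.71 and 5.30. Against 6 h LPS, 4 genes of the DREAM list rose and 1 fell, or 15.4% and 3.85%. With the block 5 rose and 2 fell, or 19.2% and 7.69%. Of the G1/S list 3 rose and 1 fell, or 6.12% and 2.04%. With the block 8 of that list rose and 2 fell, or 16.3% and 4.08%. Over all tested genes the shares were 7.1% and 6.02%, or 16% and 15.7% with the block. At 6 h no gene of either list passed in limma. An unadjusted p below 0.05 was found in 7 of the 26 and 13 of the 49, against 2163 of all 9431 tested genes. With the block 3 were higher and 4 lower in the DREAM list, or 11.5% and 15.4%. In the G1/S list 4 were higher and 7 lower, or 8.16% and 14.3%. These shares were near the 11.6% and 12.5% of all tested genes. The median level of the G1/S list was 8.64 to 8.72 on the unstimulated arrays, 8.34 to 8.65 at 6 h and 8.68 to 8.82 on the tolerant arrays.

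**Figure D4:**
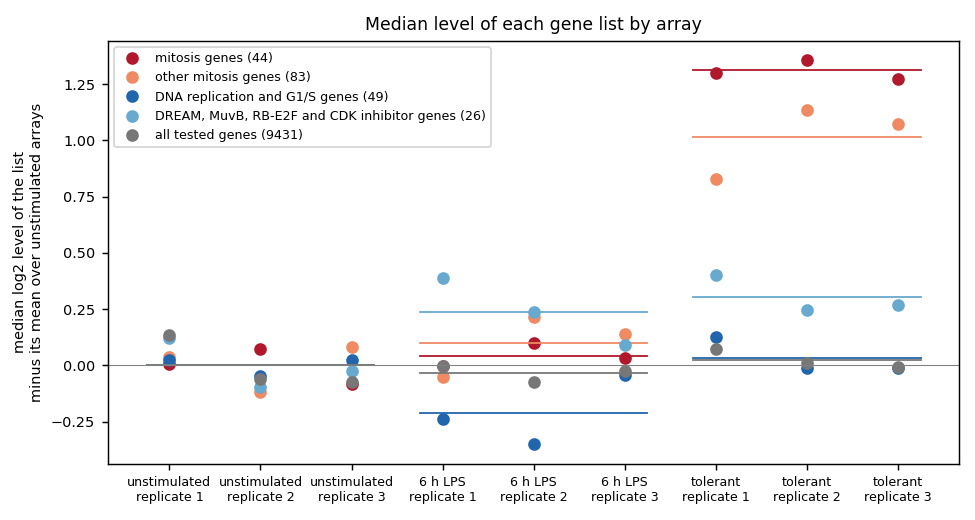
Median log2 level of 4 gene lists and of all tested genes on each of the 9 arrays, minus the list's own mean over the unstimulated arrays. Points are arrays and lines are means of 3 arrays; the 44 mitosis genes and the further mitosis genes lie highest on the tolerant arrays, the G1/S list lies lowest on 6 h LPS replicates 1 and 2, and all tested genes stay near 0.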

How the data were processed

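Total RNA was isolated with TRIzol and labelled with biotin, per the labels' protocols. The authors deposited 1 linear intensity for each probe set on each array. The submitters' processing notes name GCRMA, with no version. That method takes off a background modelled on probe sequence, which leaves low values near a floor. Depth does not apply to arrays, and the 3 arrays per condition limit the precision.

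The log2 of each value was taken with no pseudocount. Of the 45101 probe sets, 34945 carried 1 symbol in the platform annotation. In R 4.3.3 with limma 3.58.1, a linear model with 3 condition means, fitted to the 9 arrays by lmFit (6 residual degrees of freedom, 4 with the replicate block) and eBayes gave two-sided tests, with Benjamini-Hochberg adjustment over 9431 genes within each of 3 comparisons at 0.05. The fit without the block was also tested on simulated data. Their noise was independent between arrays, so the replicate structure was not covered. The members and lists were chosen with earlier results of these data known. Array values are given per role for the members with the 3 largest changes and the smallest between tolerant and unstimulated cells and for those called at 6 h with the block, and at most 4 genes are named from each other list.

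Arrays of replicate 1 deviated together, with correlations across genes of 0.737 to 0.844 for deviations from the condition means. Same-numbered pairs of replicates 2 and 3 gave 0.157 to 0.677. Differently numbered arrays of replicates 2 and 3 gave 0.214 to 0.731, no lower than the same-numbered ones. The correlations thus set replicate 1 apart and show no pairing by number between replicates 2 and 3.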

Additional observations from a re-analysis of the deposited data

How the results depend on the processing

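The counts of mitosis genes in both comparisons with tolerant cells kept their direction under every setting run, with 0 called lower. For tolerant against unstimulated cells they were 40 higher with the replicate block and 38 from replicates 2 and 3 only. With 1 array left out they were 28 to 34. Over all tested genes these fits called 2142, 1749 and 752 to 1474 higher, against 1318 in the main fit. The 10 other settings (filter, floor, normalization, probe-set rule, eBayes settings and separate fits) gave 28 to 35 of the mitosis genes. For tolerant against 6 h LPS the counts of mitosis genes were 41 with the block and 36 from replicates 2 and 3 only. With 1 array left out they were 19 to 31, the lowest without tolerant replicate 2. The 10 other settings gave 22 to 32. Over all tested genes the main fit called 670 higher in this comparison, the block 1508, and fits with 1 array left out 380 to 682. At 6 h of LPS the main fit called 0, whereas the replicate block called 8 higher and 5 lower, leaving out 1 array gave 0 to 3 higher and 0 to 1 lower, and the block without 6 h LPS replicate 3, chosen after seeing the data, gave 15 and 14. Over all tested genes at 6 h, leaving out 1 array moved the calls between 5 and 503 higher and between 0 and 193 lower, both highest without 6 h LPS replicate 3. The block called 1092 of all tested genes higher and 1175 lower, or 1582 and 2465 without 6 h LPS replicate 3. With 3 arrays per condition, a missed threshold does not show that a level was unaltered.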
